A study of Homo sapiens with 4 samples.

Results

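SERPINF1 and 8 other genes of the serpin family were followed across 4 RNA sequencing libraries of SUM159, a mesenchymal cell line long used as a model of triple-negative breast cancer (TNBC). The 9 genes were taken by name from 35 serpin genes of the count files that were analysed. They were chosen on measured values, because SERPINF1 was known to be low in the libraries with indisulam and the others were picked to contrast with it. The values that chose them are therefore given here as a description. All 9 genes were among the 14269 of 60279 listed genes with a mean of at least 1 CPM, which is the count of a gene per 1e6 gene reads of its library, but SERPINB2 and SERPINB7 passed only through the treated libraries, since both were below 1 CPM in untreated cells.

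The 4 libraries were untreated cells, cells with palbociclib, cells with indisulam and cells with the combination of both drugs, with 1 library for each condition. Palbociclib blocks CDK4 and CDK6, kinases that drive cells out of G1, and indisulam leads to the degradation of the splicing factor RBM39. The sample labels give 0.5 µM palbociclib and 2 µM indisulam over 10 days, while the text of the series gives 2 µM and 3 µM over 16 h in technical duplicates. Which of these treatments the libraries had, and whether duplicates were pooled, was left undetermined. All cells were grown in the same serum-containing medium with insulin and hydrocortisone. All libraries came from this single line.

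Serpins share a fold in which an exposed loop acts as bait for a protease. The inhibitory members are cut by their target, spring into a new shape and trap the protease in a covalent complex, so that each molecule is used once. Other members keep the fold but inhibit no protease and serve as chaperones, hormone carriers or signalling proteins. Several secreted serpins act on clotting, on plasminogen activation and on blood vessel growth, whereas the serpins of clade B lack a classical signal peptide and mostly remain inside cells, where they guard against misdirected proteases. Of the 9 genes, SERPINF1, SERPINE2 and SERPINH1 encode proteins that enter the secretory pathway, and the 6 SERPINB genes belong to clade B.

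The genes lie in a few places of the genome (GRCh38, GENCODE release 44, counted from 1). SERPINF1 (ENSG00000132386) spans chr17:1762029-1777565 on the plus strand, SERPINE2 spans chr2:223975045-224039318 on the minus strand and SERPINH1 spans chr11:75562056-75572783 on the plus strand. SERPINB1 at chr6:2832332-2841959 and SERPINB9 at chr6:2887270-2903309 are neighbours on the minus strand. SERPINB5 at chr18:63476958-63505085, SERPINB7 at chr18:63752935-63805376, SERPINB2 at chr18:63871692-63903888 and SERPINB8 at chr18:63970029-64019779 stand in 1 gene cluster on the plus strand. Counts are of reads in exons of the whole gene, so isoforms were not separated.

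Start regions are shown for the clade B genes of the 9 other than SERPINB1, because the 4 of them on chromosome 18 shared letters there. The choice of genes did not use these letters. They are marked because of the matches found, however, so their counts are a description and not a test. The SERPINB1 start held none of the letters marked below. RefSeq start sites (GRCh38.p14) were matched for 8 of the 9 genes, SERPINF1 being the exception, and the 250 bases before each of their 12 listed starts were searched on both strands. The search covered letters of AP-1, the TATA box, the heat shock element (GAANNTTC), TEAD (GGAATG), the E-box (CACGTG) and the GC box (GGGCGG). In the lines that follow, printed 5′ to 3′ on the strand of the gene, capitals mark TGANTCA, called AP-1 letters here, and the TATA box letters TATAAA. N stands for any base. Bases that belong to an annotated exon of a coding gene were left off, which shortened the SERPINB7 and SERPINB8 lines at their 3′ ends.
SERPINB2, chr18:63887455-63887704, plus strand: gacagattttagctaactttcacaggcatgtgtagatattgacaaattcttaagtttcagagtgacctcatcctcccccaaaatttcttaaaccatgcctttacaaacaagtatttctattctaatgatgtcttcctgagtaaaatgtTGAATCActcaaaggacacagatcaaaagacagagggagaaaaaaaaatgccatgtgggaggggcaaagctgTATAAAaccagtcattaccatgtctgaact
SERPINB7, 1 of 3 listed starts, chr18:63777531-63777776, plus strand: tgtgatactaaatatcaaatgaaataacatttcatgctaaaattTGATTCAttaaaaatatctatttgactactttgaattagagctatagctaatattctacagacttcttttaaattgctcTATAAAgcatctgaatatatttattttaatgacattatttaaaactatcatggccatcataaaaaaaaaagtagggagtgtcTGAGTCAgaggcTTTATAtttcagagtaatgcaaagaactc
SERPINB8, chr18:63969831-63970028, plus strand: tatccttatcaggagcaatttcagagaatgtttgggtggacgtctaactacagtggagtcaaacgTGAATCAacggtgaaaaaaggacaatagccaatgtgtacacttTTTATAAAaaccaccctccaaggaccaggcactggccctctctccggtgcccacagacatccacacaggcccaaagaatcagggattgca
SERPINB5, chr18:63476708-63476957, plus strand: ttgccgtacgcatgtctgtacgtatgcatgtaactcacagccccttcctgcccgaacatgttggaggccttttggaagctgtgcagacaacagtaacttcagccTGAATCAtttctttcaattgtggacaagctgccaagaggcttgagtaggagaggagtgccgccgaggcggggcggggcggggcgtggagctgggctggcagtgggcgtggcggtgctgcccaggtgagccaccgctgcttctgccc
SERPINB9, chr6:2903310-2903559, minus strand: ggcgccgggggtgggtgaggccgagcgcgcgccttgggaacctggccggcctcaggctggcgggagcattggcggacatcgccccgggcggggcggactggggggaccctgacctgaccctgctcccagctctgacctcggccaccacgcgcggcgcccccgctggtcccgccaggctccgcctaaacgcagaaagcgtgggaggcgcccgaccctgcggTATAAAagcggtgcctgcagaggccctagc
AP-1 is the dimer of Fos and Jun proteins, and the TATA box is the core promoter element bound by the TATA-binding protein. The searched pattern TGANTCA is looser than the AP-1 consensus TGA(G/C)TCA. Of the printed matches, only that of SERPINB7 at 45 bases, TGAGTCA, has the consensus. The share over all promoters is for the looser pattern as well. The AP-1 letters occurred at a listed start of SERPINB2, SERPINB5, SERPINB7 and SERPINB8, or at 5 of the 12 listed starts of the matched genes, whereas 6.57% of the 35116 promoters in the table held them. SERPINB2 had them 102 bases before its start and a TATA box at 30 bases. The SERPINB7 start shown had AP-1 letters at 206 and 45 bases and TATA letters at 127 and 33 bases, where the nearer TATA match is on the opposite strand. Of the other listed SERPINB7 starts, 1 had AP-1 letters at 154 and 39 bases and 1 had none. Neither of them had TATA letters. SERPINB8 had AP-1 letters at 185 bases and again at 28 bases, the latter outside the printed stretch, and overlapping TATA matches at 142 and 140 bases. SERPINB5 held AP-1 letters at 146 bases and no TATA match. SERPINB9, SERPINB1, SERPINE2 and SERPINH1 held no AP-1 letters in their windows. Of the other serpins, 20 were in the table and 4 of them held the AP-1 letters, but none of these 4 (SERPINB12, SERPINB13, SERPINE3 and SERPINI2) reached a mean of 1 CPM. SERPINB12 and SERPINB13 lie in the same chromosome 18 cluster as the genes shown. SERPINB3 and SERPINB4 of that cluster were measured and held no AP-1 letters. TATA letters occurred in 10.7% of all promoters and at 4 of the 12 starts. GC box letters occurred in 42.6% of all promoters and at a start of SERPINB1, SERPINB5, SERPINB9, SERPINE2 and SERPINH1. Heat shock element letters occurred at a start of SERPINB7 and SERPINH1, E-box letters at a start of SERPINE2, and TEAD letters at none. SERPINB2, SERPINB5, SERPINB7 and SERPINB8 lie in 1 cluster and are not independent cases. A match of letters is a description of the sequence and does not show that a factor binds there.

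The libraries held between 12555908 and 16712174 gene reads, and 3 reads, the floor used for detection, corresponded to 0.180 to 0.239 CPM. Mitochondrially encoded genes took between 4.90% and 7.33% of the reads. The mesenchymal markers VIM, CD44, AXL and ZEB1 were measured in all 4 libraries, with summed levels between 3819 and 5890 CPM. Of the luminal epithelial markers, KRT18 lay between 162 and 249 CPM and GATA3 between 5.52 and 13.0 CPM. EPCAM and CDH1 were at or below 1.95 CPM. Of the receptors that define the triple-negative class, ESR1 was at or below 1.11 CPM, PGR at or below 0.209 CPM and ERBB2 between 110 and 143 CPM. Of the leukocyte markers, CD3E had 0 reads and CD68 at most 2 reads, while PTPRC lay between 11.1 and 17.5 CPM. The endothelial markers summed to between 15.6 and 42.7 CPM, where 1 of 2 was found in every library and CDH5 had 0 reads with indisulam and with the combination. All 3 fibroblast markers were found in every library, and their sum was 2228, 3498, 3910 and 3126 CPM in the untreated, palbociclib, indisulam and combination libraries. Within this sum DCN stood at 233, 551, 1681 and 1841 CPM and PDGFRB at 200, 140, 80.4 and 39.2 CPM. DCN and PDGFRB thus went opposite ways along the same contrast as SERPINF1. COL1A1 stood at 1795, 2807, 2148 and 1246 CPM and followed neither. It was higher with indisulam than in untreated cells, and lower with the combination than with palbociclib. Their part in the serpin values was not tested.

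Each ratio between 2 libraries was taken on counts scaled to equal totals, with a pseudocount of 1 scaled count, and carries a 95% counting interval in brackets. A gene was called higher or lower when the ratio was at least 2-fold and its interval excluded 0 on the log2 scale. There were no replicates, so no difference has a replicate check and no p-value is given. No molecular identifiers were used, so reads are not independent molecules and the intervals describe the error of counting alone. In bulk libraries, fewer cells with a transcript and less transcript per cell cannot be told apart. The effect of indisulam was read from 2 pairs that share no library, indisulam against untreated and the combination against palbociclib, and that of palbociclib from the remaining pairs in the same way.

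SERPINF1 was the serpin with the largest loss in the libraries with indisulam. It encodes pigment epithelium-derived factor (PEDF), a secreted serpin that inhibits no protease and is known as an inhibitor of blood vessel growth and as a factor in bone matrix formation. Untreated cells gave 614 reads and cells with palbociclib 1004, against 49 with indisulam and 38 with the combination. These counts correspond to 48.9, 79.1, 2.93 and 2.65 CPM. Both libraries with indisulam were low and both without it were high, and the reads left were well above the floor of 3. The log2 ratio of indisulam to untreated was -4.03 (-4.44 to -3.61), a 16.3-fold lower level. The log2 ratio of the combination to palbociclib was -4.86 (-5.33 to -4.40), a 29.1-fold lower level. Among all genes tested, SERPINF1 ranked 16 from the lowest in the former and 7 from the lowest in the latter. Of the 11376 genes at a mean of 5 CPM or more, 7 lay at or below SERPINF1 in the former ratio and 5 in the latter, and 2 did so in both, with SERPINF1 included in each count.

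Palbociclib was not called for SERPINF1 in either pair. Against the untreated library the log2 ratio was 0.69 (0.55 to 0.84), a level 1.62-fold higher that stayed below the 2-fold threshold. Against the indisulam library the combination differed by -0.14 (-0.75 to 0.46), an interval that holds both signs on 38 against 49 reads. The departure from additivity, which subtracts both single-drug log2 ratios from that of the combination, was -0.84 (-1.46 to -0.22).

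**Figure D1:**
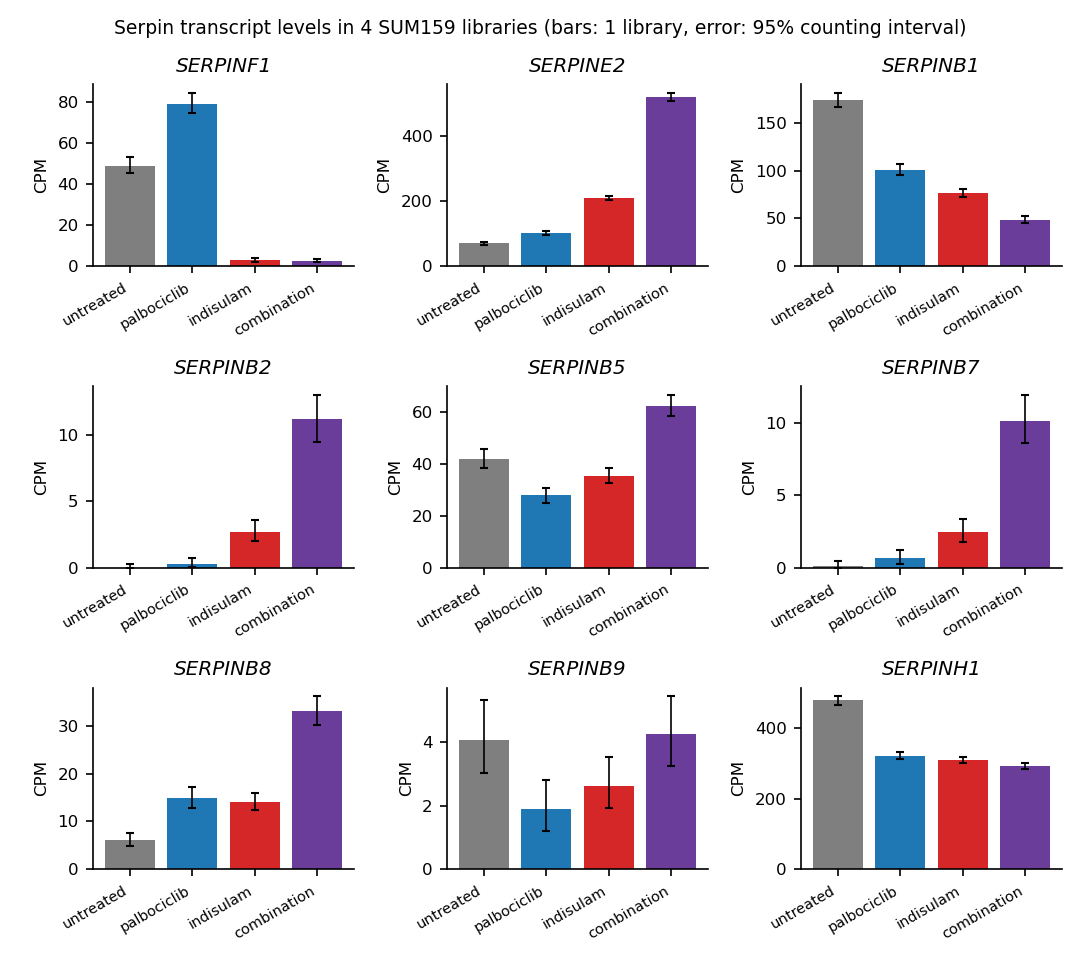
Levels of the 9 serpin transcripts in CPM (vertical axes, each from 0) in the 4 SUM159 libraries, where each bar is 1 library and error bars are 95% counting intervals. SERPINF1 stands at 48.9 and 79.1 CPM without indisulam and at 2.93 and 2.65 CPM with it, while SERPINE2 climbs from 70.5 to 521 CPM and SERPINH1 stays between 292 and 478 CPM.

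SERPINE2, the other secreted member, moved the opposite way to SERPINF1. It encodes protease nexin 1, an inhibitor of thrombin, plasmin and urokinase that is kept near the cell surface by heparan sulfate. Its reads numbered 885 without treatment, 1295 and 3507 with palbociclib and indisulam alone, and 7484 with both, or 70.5, 102, 210 and 521 CPM. The combination library was the highest and the untreated library the lowest, and no counting intervals overlapped. Indisulam was called higher in both pairs, with log2 ratios of 1.57 (1.47 to 1.68) without palbociclib and 2.35 (2.27 to 2.44) in its presence. Palbociclib against untreated gave 0.53 (0.41 to 0.66), which was not called, whereas the combination against indisulam gave 1.31 (1.25 to 1.37), which was called. The combination stood 7.39-fold above untreated cells. The departure from additivity was 0.78 (0.64 to 0.92), below 2-fold.

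SERPINH1 was the most even of the 9. It encodes HSP47, a chaperone of the endoplasmic reticulum that binds procollagen and inhibits no protease. It had 6003, 4073, 5145 and 4196 reads in the untreated, palbociclib, indisulam and combination libraries, or 478, 321, 308 and 292 CPM. The untreated library was the highest and the other 3 lay close together. Relative to untreated cells, palbociclib gave a log2 ratio of -0.57 (-0.63 to -0.52) and indisulam one of -0.63 (-0.69 to -0.58). Adding indisulam to palbociclib gave -0.14 (-0.20 to -0.07). None of its 5 ratios was called.

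Among the clade B genes, SERPINB2 and SERPINB7 went from the limit of detection to clear levels with indisulam. SERPINB2 encodes plasminogen activator inhibitor 2, an inhibitor of urokinase that is found mostly inside cells. Untreated cells gave 0 reads and cells with palbociclib 3, against 45 with indisulam and 160 with the combination, the last 2 being 2.69 and 11.1 CPM. Set against the floor of 3 reads in the untreated library, SERPINB2 was 11.3-fold higher with indisulam and 46.6-fold higher with the combination. These values leave out counting error and are not lower bounds. With the counted 0 untreated reads, the exact counting interval started at 8.79-fold for indisulam and at 37.5-fold for the combination. The ratio of the combination to palbociclib, whose library held 3 reads, was 47.1 with an exact counting interval of 15.8 to 231. Both values of palbociclib against untreated were at or under the floor and give no fold. The combination exceeded indisulam alone by 2.02 (1.55 to 2.49) on the log2 scale, and 547 of the exonic bases of the gene overlap another annotated gene on the same strand that was not in the count files.

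SERPINB7 ran in parallel with SERPINB2 at nearly equal counts. It encodes megsin, known from kidney mesangial cells and from the outer epidermis, where its loss causes a palmoplantar keratosis. Untreated cells gave 1 read and cells with palbociclib 8, against 41 with indisulam and 146 with the combination, or 0.0796, 0.630, 2.45 and 10.2 CPM. The ratio of indisulam to untreated was 30.8 with an exact counting interval of 5.23 to 1246, and that of the combination to untreated was 128 with an interval of 22.6 to 5076. The combination against palbociclib gave a log2 ratio of 3.87 (2.89 to 4.85). The log2 ratio of the combination to indisulam was 2.02 (1.53 to 2.51), equal to that of SERPINB2 to 2 decimals. The lower bounds place the direction beyond counting error in these libraries, which have no replicates. The size against untreated is not clear, because a single untreated read sets it.

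SERPINB8 was called higher in all 5 comparisons. Its product inhibits furin, the convertase that matures many secreted and membrane proteins. It had 76, 189, 235 and 477 reads in the untreated, palbociclib, indisulam and combination libraries, or 6.05, 14.9, 14.1 and 33.2 CPM. The single-drug libraries were alike, with overlapping counting intervals, and the combination library was the highest. The log2 ratios were 1.29 (0.91 to 1.67) for palbociclib and 1.21 (0.84 to 1.58) for indisulam against untreated. In the presence of the other drug they were 1.24 (1.01 to 1.46) for palbociclib and 1.15 (0.91 to 1.40) for indisulam. The departure from additivity was -0.05 (-0.50 to 0.39), so that the log2 ratios of the single drugs added up within counting error. SERPINB8 shares 6.42% of its exonic bases with HMSD on the same strand, which had 0 reads in each library.

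SERPINB1 went the other way, with the lowest level in the combination library. It encodes the leukocyte elastase inhibitor, which acts on neutrophil elastase, cathepsin G and proteinase 3. Untreated cells gave 2183 reads, either single drug 1281 (palbociclib) or 1275 (indisulam), and the combination 693, or 174, 101, 76.3 and 48.3 CPM. Every treated library was below the untreated one. Indisulam was called lower in both pairs, with log2 ratios of -1.19 (-1.29 to -1.09) without palbociclib and -1.06 (-1.20 to -0.93) with it. Palbociclib gave -0.78 (-0.88 to -0.68) without indisulam and -0.66 (-0.79 to -0.53) with it, which remained below 2-fold. The departure from additivity was 0.12 (-0.04 to 0.29).

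For SERPINB5 and SERPINB9, either drug alone gave a lower value and the drugs together did not. With indisulam alone, however, the difference was within the noise bound given below. SERPINB5 encodes maspin, a serpin of mammary epithelial cells that inhibits no known protease and was described as a tumour suppressor. It had 526, 352, 588 and 895 reads in the untreated, palbociclib, indisulam and combination libraries, or 41.9, 27.7, 35.2 and 62.3 CPM. Relative to untreated cells the log2 ratios of palbociclib, indisulam and the combination were -0.59 (-0.79 to -0.40), -0.25 (-0.42 to -0.08) and 0.57 (0.42 to 0.73), and none of these was called. The combination against palbociclib was called higher at 1.17 (0.99 to 1.34). Indisulam thus had opposite signs for SERPINB5 in its 2 pairs, but the value with indisulam alone lay within the noise bound of a single ratio. This bound, 0.26 on the log2 scale, was taken from the robust spread of departures from additivity over genes of like level. It is on the scale of 1 standard deviation of a single ratio, so a value somewhat above it is not thereby outside noise.

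SERPINB9 showed a similar order at much lower counts. Its product inhibits granzyme B, the protease by which cytotoxic lymphocytes kill their targets. It had 51, 24, 44 and 61 reads in the same order of libraries, or 4.06, 1.89, 2.63 and 4.25 CPM. Palbociclib against untreated was called lower at -1.07 (-1.77 to -0.38) and the combination against palbociclib was called higher at 1.14 (0.47 to 1.81), while the combination and untreated libraries differed by 0.06 (-0.47 to 0.60). Indisulam against untreated, at -0.61 (-1.19 to -0.04), was not called and lay within its noise bound of 0.62. The call for palbociclib did not hold with a pseudocount of 5.

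**Figure D2:**
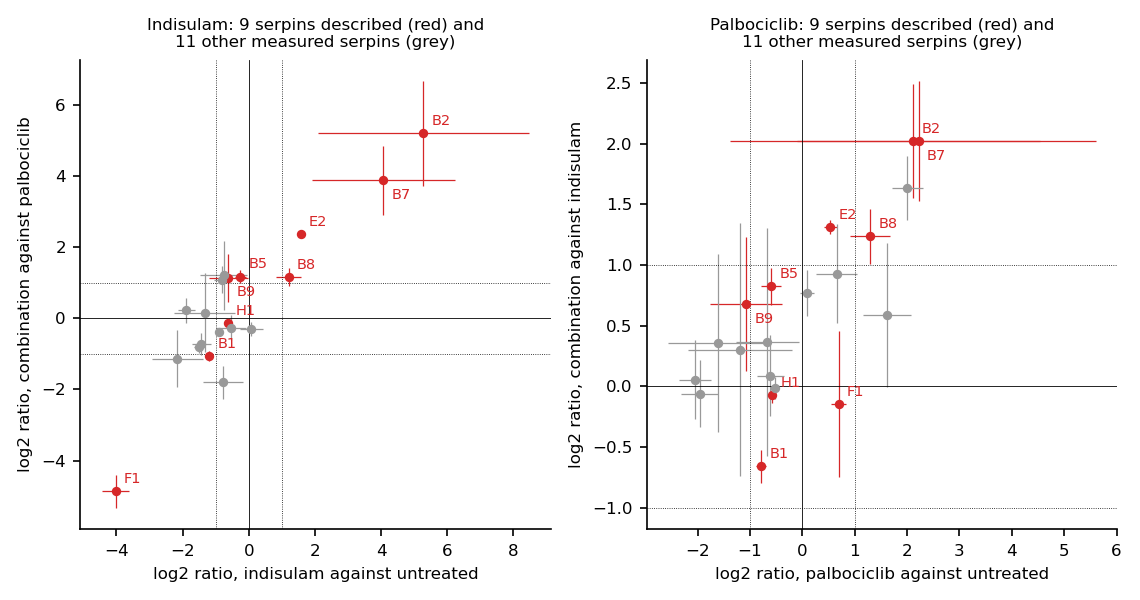
Log2 ratios for indisulam (left) and palbociclib (right), each estimated without the other drug (horizontal axis) and with it (vertical axis), for the 9 serpins described (red, labelled without the prefix SERPIN) and 11 other measured serpins (grey). Bars are 95% counting intervals, dotted lines mark 2-fold, and values of SERPINB2 against untreated rest on the pseudocount because that library had 0 reads. SERPINF1 sits alone at -4.03 and -4.86 for indisulam, and SERPINB8 lies above 1 on all 4 axes.

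Set against all genes tested, called changes were frequent among the 9 genes, which were chosen partly for such changes, so that nothing is read from the excess. For indisulam against untreated, 4 of 9 were called higher, where 8.37% of all genes tested were, and 2 of 9 were called lower, where 6.69% were. For the combination against palbociclib, 6 of 9 were called higher against 9.56% of all genes, and 2 of 9 lower against 7.38%. SERPINE2, SERPINB2, SERPINB7 and SERPINB8 were called higher and SERPINF1 and SERPINB1 lower in both pairs, where 4.85% and 3.66% of all genes tested were called higher and lower in both. For the combination against untreated, 4 of 9 were called higher and 2 of 9 lower, against 12.9% and 10.5% of all genes. The median log2 ratio of the 9 genes in the indisulam pairs was -0.25 without palbociclib and 1.15 with it, where the medians over all genes tested were 0.06 and 0.07.

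Fewer of the 9 were called for palbociclib than for indisulam. The genes were chosen on values with indisulam, so nothing is read from this difference. Against untreated cells, 1 of 9 was called higher (SERPINB8) and 1 of 9 lower (SERPINB9), where 5.81% and 4.88% of all genes tested were called. Against indisulam alone, the combination had 4 of 9 higher (SERPINE2, SERPINB2, SERPINB7 and SERPINB8) and 0 of 9 lower, where 5.05% and 3.15% of all genes were called. In both pairs, 1 of 9 was called higher and 0 of 9 lower, where 1.99% and 1.24% of all genes were. The median log2 ratio of the 9 genes was 0.53 in the former pair and 0.82 in the latter, where those of all genes were -0.02 and -0.01.

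**Figure D3:**
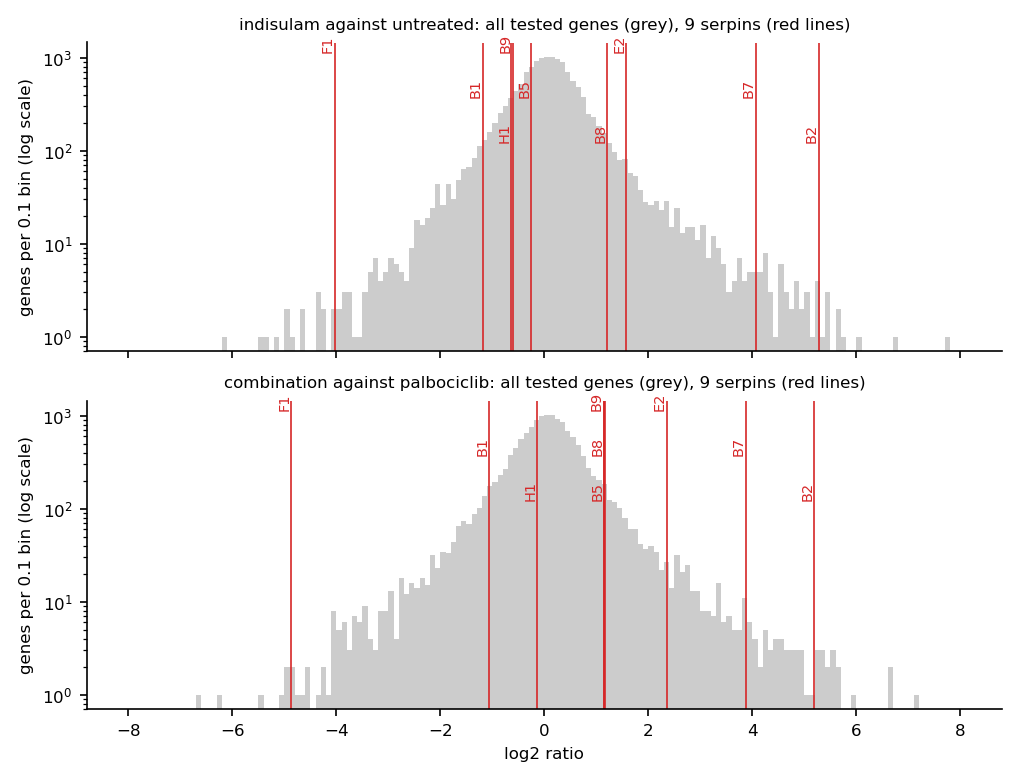
Distribution of log2 ratios (horizontal axis) over the 14269 genes tested, as genes per 0.1 bin on a log axis (grey), for indisulam against untreated (top) and the combination against palbociclib (bottom). Red lines mark the 9 serpins, with SERPINF1 in the far left tail at -4.03 and -4.86 and SERPINB7 at 4.07 and 3.87 in the right tail, where the SERPINB2 and SERPINB7 values of the top panel rest on 0 and 1 untreated reads.

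Levels were compared between genes only per length, as reads per kilobase of annotated exon per 1e6 gene reads (RPKM). The length merges the exons of all annotated transcripts, 10 for SERPINE2 and 16 for SERPINH1. It is not that of the transcript expressed, so the order between genes depends on the annotation as well as on counting error. In untreated cells the order was SERPINH1 (76.1 RPKM), SERPINB1 (57.1), SERPINF1 (16.4), SERPINB5 (11.2) and SERPINE2 (7.87), with the other 4 genes at or below 1.05 RPKM. SERPINF1 thus ranked 3 among the 9, and it kept that rank with palbociclib, at 26.5 RPKM. With indisulam it stood at 0.981 RPKM, where its counting interval overlapped those of SERPINB2 (0.982) and SERPINB7 (0.930). With the combination SERPINF1 ranked 9 at 0.885 RPKM, beside SERPINB9 at 1.03 RPKM with overlapping intervals. SERPINE2 led that library at 58.2 RPKM, above SERPINH1 at 46.5 RPKM. SERPINB5 at 16.7 RPKM and SERPINB1 at 15.8 RPKM followed and did not differ beyond counting error, although SERPINB1 had been 57.1 against 11.2 RPKM for SERPINB5 in untreated cells.

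The 11 other measured serpins moved less with indisulam than SERPINF1, and none was called higher in both pairs. Of the other 26 serpin genes, 7 had no read in any library and 8 had reads but stayed below the 1 CPM mean. In the 11, indisulam against untreated gave 0 higher and 5 lower calls, and the combination against palbociclib gave 2 higher and 2 lower. The shares over all genes tested were 8.37% and 6.69% in the former pair and 9.56% and 7.38% in the latter. The lower calls with indisulam alone were SERPINA1 (alpha-1 antitrypsin), with a log2 ratio of -1.49, SERPINA3 at -1.34, SERPINA5 at -1.43, SERPINB3 at -1.89 and SERPINF2 at -2.16. Only SERPINF2 (alpha-2 antiplasmin), the genomic neighbour of SERPINF1, was called lower in both, with 57, 36, 16 and 18 reads in the untreated, palbociclib, indisulam and combination libraries. The higher calls of the combination against palbociclib were SERPINA6 at 1.20 and SERPINB4 at 1.08, the lower calls were SERPINF2 at -1.13 and SERPING1 at -1.81, and AGT, SERPINB6 and SERPINI1 were not called for indisulam in either pair. SERPINB3 and SERPINB4 are near-identical copies, and reads that fit both were not counted, so their values are uncertain. For palbociclib against untreated the 11 had 2 higher calls (AGT at 2.01 and SERPING1 at 1.62) and 4 lower calls, where the shares over all genes were 5.81% and 4.88%. Departures from additivity of 2-fold or more, with intervals that excluded 0, were found upwards in 4 of them. They were 2.11 (1.66 to 2.55) for SERPINB3, 1.89 (1.44 to 2.34) for SERPINB4, 1.97 (0.76 to 3.17) for SERPINA6 and 1.49 (0.06 to 2.93) for SERPINA3. The same held downwards for SERPING1, at -1.03. A departure of the size seen for SERPINB5 (1.42) and SERPINB9 (1.75) was thus not particular to these genes. The pattern was not the same, however. The log2 ratio of the combination to untreated was -1.83 for SERPINB3, -0.88 for SERPINB4, -0.40 for SERPINA6 and -1.03 for SERPINA3. It was 0.57 for SERPINB5 and 0.06 for SERPINB9.

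The shares of SERPINF1 and SERPINE2 in the reads of these 35 serpins moved apart with indisulam. SERPINF1 made up 3.97% of them in untreated cells, 8.14% with palbociclib, 0.344% with indisulam and 0.216% with the combination. SERPINE2 made up 5.72%, 10.5%, 24.6% and 42.5% in the same order. These are shares of reads, which a longer transcript collects in larger number. The exonic length, merged over all annotated transcripts, is 8957 bases for SERPINE2 against 2990 for SERPINF1. The shares therefore give no order of level between both genes. SERPINB2 also belongs to a previously published senescence list that the study tested for enrichment. If these libraries entered that test, its direction here is no separate support for it.

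The clade B genes form a pair of clusters. On chromosome 6, SERPINB1, SERPINB9 and SERPINB6 lie within 139.8 kb. SERPINB1 was called lower in both pairs, SERPINB6 gave -0.91 and -0.39 with no call, and SERPINB9 gave -0.61 without palbociclib and was called higher with it. All 3 were thus below 0 for indisulam alone, as were the 6 measured coding genes flanking this cluster, at -1.26 to -0.08 with 1 called lower. In the combination against palbociclib these flanking genes lay between -1.91 and -0.14, again with 1 called lower. On chromosome 18, 10 serpin genes lie within 542.8 kb and 6 of them were measured. There SERPINB7, SERPINB2 and SERPINB8, at one end of the cluster, were higher in both pairs, while SERPINB3, between SERPINB5 and SERPINB7, was lower with indisulam alone at -1.89. The 6 measured coding genes flanking the chromosome 18 cluster had log2 ratios between -0.79 and 0.38 for indisulam against untreated, with 0 calls. In the combination against palbociclib the flanking genes had 0 higher and 2 lower calls.

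**Figure D4:**
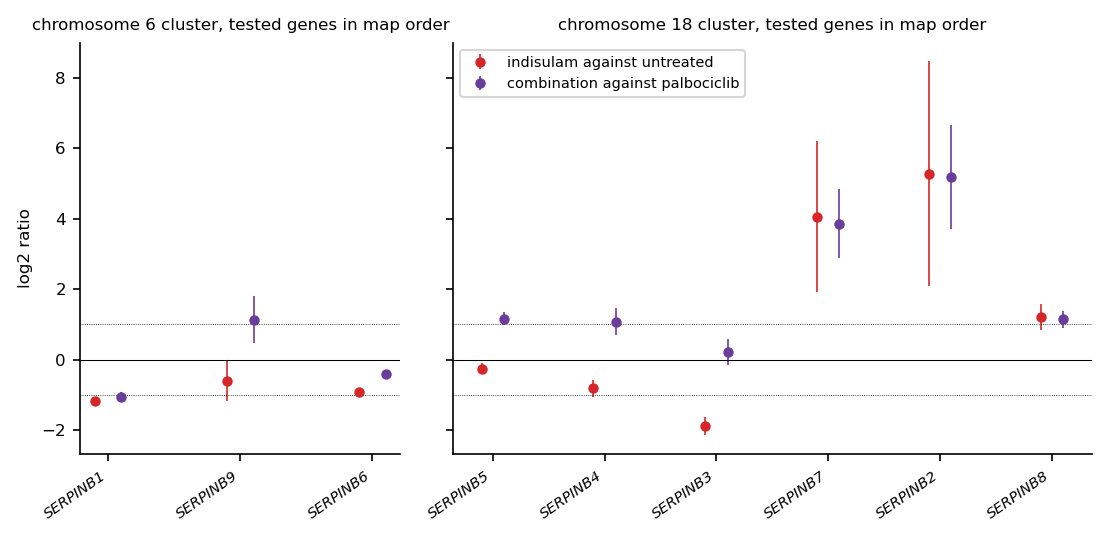
Log2 ratios (vertical axis) of the measured serpins of the chromosome 6 and chromosome 18 clusters in map order (horizontal axis), for indisulam against untreated (red) and the combination against palbociclib (purple), with 95% counting intervals and dotted lines at 2-fold. SERPINB7, SERPINB2 and SERPINB8 lie above 1 in both colours, whereas SERPINB3 is at -1.89 in red, and the red SERPINB2 value rests on the pseudocount.

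Several genes around SERPINF1 were called lower as well, while the nearest gene downstream was not. Of the 3 measured coding genes on each side, TLCD2 gave log2 ratios of -2.04 without palbociclib and -1.74 with it, WDR81 gave -0.80 and -1.22, and SERPINF2 gave -2.16 and -1.13. On the other side, SMYD4, the next gene downstream, gave 0.58 and 0.45, RPA1 gave -0.71 and -0.26, and RTN4RL1 gave -2.59 and -2.78. TLCD2, SERPINF2 and RTN4RL1 were thus called lower in both pairs, and SMYD4 was not lower in either. Windows around the gene were then chosen after these values were seen. Within 250 kb on each side, 11 other coding genes were tested, of which 4 were called lower with indisulam alone and 6 lower in the combination against palbociclib, with 0 called higher. Among all 12542 coding genes tested, 6.27% and 6.91% were called lower. Within 1000 kb, 30 genes were tested, of which 5 and 8 were called lower and 1 in each pair was called higher. SERPINF1 itself had a larger loss than any of the genes within 500 kb.

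**Figure D5:**
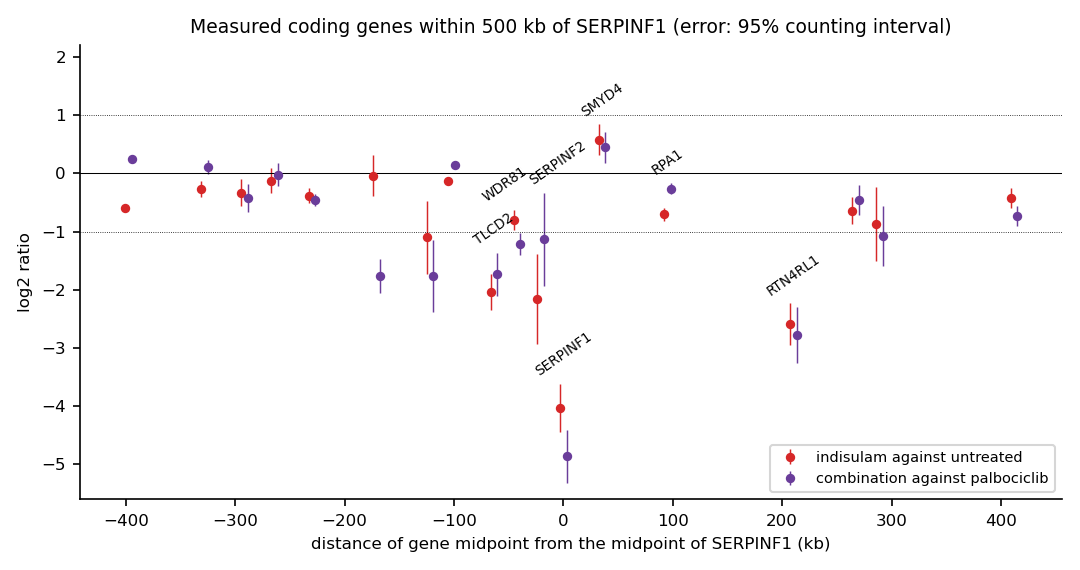
Log2 ratios (vertical axis) of SERPINF1 and the measured coding genes within 500 kb, against the distance between gene midpoints in kb (horizontal axis), for indisulam against untreated (red) and the combination against palbociclib (purple), with 95% counting intervals, dotted lines at 2-fold and the colours side by side for each gene. TLCD2, SERPINF2, RTN4RL1 and an unlabelled gene, RILP, lie below -1 in both, and SMYD4 lies above 0.

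The genes whose 3 log2 ratios to untreated were most like those of SERPINF1, by Euclidean distance over 11376 genes at a mean of 5 CPM or more, were SELENOP (distance 0.92), FER1L4 (1.09), ALDH3A1 (1.32), C7 (1.52) and CXCL13 (1.54). SELENOP, which encodes the selenium carrier selenoprotein P, had 16031, 15300, 1828 and 1057 reads in the untreated, palbociclib, indisulam and combination libraries. CXCL13, a B cell chemokine, was the nearest of these in its log2 ratio of palbociclib to untreated (0.65), with 169, 268, 8 and 3 reads, and C7, a terminal complement component, had 96, 224, 14 and 12 reads. These ratios share the untreated library, and the likeness is over 4 libraries only.

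The partners of these serpins were read from lists of receptors, proteases and pathway genes. Of 5 measured candidate PEDF receptors, PLXDC1 was called lower in both indisulam pairs, with 8.04, 33.6, 2.03 and 2.09 CPM, and the other 4 were called in neither. PLXDC1 therefore had its highest value with palbociclib and its lowest values with indisulam, as SERPINF1 did. Of 5 measured endocytic receptors and their chaperone that clear serpin complexes, LRP1 was called lower in both, with 5058, 6937, 2662 and 2003 reads, and none was called higher in both. Of 9 measured regulators of blood vessel growth, a list that holds promoters as well as inhibitors of it, 4 were called higher and 0 lower for indisulam alone, and 1 higher and 0 lower in the combination against palbociclib. THBS1, a matrix inhibitor of that growth, was the gene called higher in both, with 3267, 2289, 8049 and 5261 CPM.

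The target proteases were called in some cases. Of 5 measured extracellular proteases and their receptors, which include the urokinase system that SERPINE2 and SERPINB2 act on, 0 were called for indisulam alone, and 2 were called higher and 0 lower in the combination against palbociclib. Of 8 measured proteases of clade B serpins, 2 were called higher and 1 lower in each of these pairs. CASP1 was called higher in both indisulam pairs, with 75.7, 55.2, 199 and 117 CPM. ELANE, the neutrophil elastase that SERPINB1 inhibits, was called lower in both, but it had only 36, 31, 8 and 2 reads. Of the 17 collagen-folding genes that work beside HSP47, 3 were called lower and 0 higher for indisulam alone, and 1 lower and 2 higher in the combination against palbociclib, with none in both. Of 11 heat shock genes, 1 was called higher for indisulam alone and none in the combination against palbociclib. For these lists, the shares called over all genes tested were 8.37% higher and 6.69% lower for indisulam alone, and 9.56% higher and 7.38% lower for the combination against palbociclib. The lists were chosen with results of these data known, and the counts are not tests.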

How the data were processed

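RNA of SUM159 cells was measured in 4 libraries, 1 per condition, and groups were taken from the sample labels. The deposited values are raw counts of reads per Ensembl gene, not normalized by the authors. The submitters' processing notes name TopHat2 2.1, HTSeq and GRCh38, and the libraries were stranded and poly(A)-selected. The strand setting of the counting and the annotation release are not given in the sources used here. Reads placed at more than 1 position or in more than 1 gene were not counted for a gene, which lowers values of near-identical and overlapping genes.

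Here, counts were scaled by total gene counts to the mean total, 1 was added, and log2 ratios were given 95% Poisson intervals. The procedure was also run on simulated counts, with and without added variation between libraries, and the outcome is not reported here. Genes at a mean of 1 CPM or more were tested, and calls needed a 2-fold ratio and an interval without 0. No test over replicates was possible. Alternatives were TMM factors (edgeR 4.0.16), median-of-ratios factors (DESeq2 1.42.0), upper-quartile factors, totals without mitochondrial genes, and other pseudocounts, folds and filters. Calculations used Python 3.11.15, numpy 2.4.6, pandas 2.3.3 and R 4.3.3. Lengths and positions are from GENCODE release 44.

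Named genes were the 9 serpins, all other serpins at a mean of 1 CPM (except 1 that is not reported here), up to 3 genes per partner list called the same way in both indisulam pairs, the 3 measured coding genes on each side of SERPINF1 and the 5 genes nearest to it in pattern. Genes flanking the SERPINB clusters were given as counts. The members and lists were chosen with earlier results of these data known.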

Additional observations from a re-analysis of the deposited data

Results flagged for a closer look

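For SERPINB5 and SERPINB9 the effect of indisulam differed with and without palbociclib by more than 2-fold, with a counting interval that excluded 0. The departure from additivity on the log2 scale was 1.42 (1.17 to 1.66) for SERPINB5 and 1.75 (0.87 to 2.63) for SERPINB9. The intervals hold counting error only, and the difference was not tested across replicates because each condition had 1 library. Over genes of like level the robust spread of the departure was 0.37 for SERPINB5 (20 to 100 CPM) and 0.88 for SERPINB9 (1 to 5 CPM). SERPINB5 had 526, 352, 588 and 895 reads and SERPINB9 had 51, 24, 44 and 61 reads in the untreated, palbociclib, indisulam and combination libraries. Of the 11 other measured serpins, SERPINB3, SERPINB4, SERPINA6 and SERPINA3 met the same criterion upwards, at 2.11, 1.89, 1.97 and 1.49, and SERPING1 downwards at -1.03.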

How the results depend on the processing

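The log2 ratio of SERPINF1 ranged from -4.09 to -3.91 for indisulam against untreated and from -4.94 to -4.73 for the combination against palbociclib over the other scalings and the pseudocount of 5. No ratio or departure that was called changed sign under any alternative run, and the 4 other scalings changed no count of called members. Counts of called members moved by over 1.5 times under other thresholds. For palbociclib against untreated, 2 members were called, against 5 at a 1.5-fold threshold, 0 at 3-fold and 1 with a filter at 5 CPM. A pseudocount of 5 also gave 2 members, but SERPINB7 and SERPINB8 in place of SERPINB8 and SERPINB9. For the combination against indisulam, 4 became 7 at 1.5-fold, 2 at 3-fold and 2 at 5 CPM. For the combination against palbociclib, 8 became 4 at 3-fold and 5 at 5 CPM, and for indisulam against untreated 6 became 3 at 3-fold. These follow from the stricter or looser criteria, and the 5 CPM filter removed SERPINB2, SERPINB7 and SERPINB9. No paired analysis was possible because each condition had 1 library, and for the same reason no replicate could be left out. Depth limits SERPINB2 and SERPINB7, whose untreated counts of 0 and 1 leave the size of the increase undetermined.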
